A study of Mus musculus with 4 samples.

Results

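The cells described here are macrophages of infarcted mouse hearts that carry RNA of Gpnmb, Trem2 and Ms4a7, and they were chosen from single-cell libraries by their own counts. A barcode was a member when it held at least 1 UMI of Csf1r, the receptor gene of monocytes and macrophages, and at least 5 UMIs of Gpnmb, Trem2 and Ms4a7 together per 10000 UMIs. A UMI is a tag that marks 1 RNA molecule, so a UMI count is a count of molecules. The sum of the 3 genes also had to be above that of Ly6c2, Chil3 and Plac8, which mark monocytes. Members further held under 4 UMIs of Lyve1, Folr2 and Cbr2 per 10000, which keeps out most resident macrophages, and under 3 UMIs of the proliferation genes Mki67 and Top2a. Barcodes with a UMI of Pdgfra (fibroblasts) or Cdh5 (endothelial cells) were left out. In all, 1490 of the 20317 barcodes kept in the infarction libraries were members, or 7.33%, out of 41766 barcodes in the whole series. There were 604 in the deletion-labelled heart and 886 in the control heart.

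Live nucleated cells from digested mouse hearts were sequenced by droplet 3' RNA sequencing in 4 libraries, 1 per group. After infarction, the death of heart muscle when its blood supply is cut, the groups were Tcf21-MerCreMer:flox and Tcf21-MerCreMer hearts 3 days later, and both genotypes were also sequenced at baseline. All 4 groups received tamoxifen, and all carry Tcf21-MerCreMer, a Cre recombinase that tamoxifen switches on in cells that use Tcf21, such as cardiac fibroblasts. Strain, age and sex of the mice and the number of hearts per library are not given in the sources used here, so the deletion-labelled or control heart means whatever hearts went into that library. The infarction libraries held 127757911 UMIs in the deletion-labelled and 129704045 UMIs in the control heart. The targeted gene went against the label, since Tcf21 stood at 37.2 CPM (counts per 1000000 UMIs of the summed cells) in deletion-labelled fibroblasts and 22.8 CPM in control fibroblasts after infarction, and at 149 CPM in deletion-labelled and 92.8 CPM in control fibroblasts at baseline. Tags lie at the 3' end of a transcript, and whether the deletion removes that end is not given in the sources used here. The library is therefore called deletion-labelled throughout. The members held 2 UMIs of Tcf21 in the deletion-labelled heart and 0 in the control heart, and no UMI of MerCreMer in either. The infarction libraries shared 19 barcode sequences, of which 0 were members in both.

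Macrophages in a healing infarct derive largely from blood monocytes, clear dead muscle cells and neutrophils, and load lysosomes with lipid, iron and protein to be broken down. TREM2 is a surface receptor for lipids and lipoproteins that signals through the adaptor TYROBP, and it is known for macrophages that take up lipid in atherosclerotic plaques, fat and brain. GPNMB is a glycoprotein of lysosome-related membranes whose gene is switched on by the MITF and TFE factors when lysosomes are under load. MS4A7 is a membrane protein found mostly in macrophages, and SPP1 (osteopontin) is a secreted phosphoprotein of macrophages in injured hearts.

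The label has 6 markers, of which the rule used Gpnmb, Trem2 and Ms4a7, so their values in members describe the choice, and Lgmn, Spp1 and Hmox1 are the markers that can check it. Gpnmb was found in 41.9% of deletion-labelled and 61.7% of control members. Members were deep cells, with a median of 18365.5 UMIs in the deletion-labelled and 18340.0 UMIs in the control heart, whereas B cells, which should lack Gpnmb, had medians of 2738 UMIs in the deletion-labelled and 2449 UMIs in the control heart. With each cell thinned to 2000 UMIs, Gpnmb was found in 20.1% of deletion-labelled (exact binomial 95% interval 16.9 to 23.6) and 35.9% of control members (32.7 to 39.1), against 0.686% of deletion-labelled and 0.911% of control B cells. The thinning left out 12 deletion-labelled and 8 control members that were shallower. In the same thinned cells, Trem2 was found in 68.2% of deletion-labelled and 75.2% of control members, against 1.60% of deletion-labelled and 2.96% of control B cells. Lgmn, which the rule did not use, was found in 92.2% of deletion-labelled and 91.2% of control members, against 12.1% of deletion-labelled and 19.6% of control B cells. It was also found in 95.7% of deletion-labelled and 85.6% of control resident macrophages, chosen by Lyve1, Folr2 and Cbr2. Monocytes with the members' exclusions, defined below, held it in 59.3% of deletion-labelled and 61.7% of control cells. Spp1, also outside the rule, was found in 85.6% of deletion-labelled and 91.0% of control members, but also in 23.1% of deletion-labelled and 38.0% of control B cells. Resident macrophages held Spp1 in 85.5% of deletion-labelled and 91.4% of control cells. Hmox1 was found in 54.9% of deletion-labelled and 65.1% of control members, and in 51.6% of deletion-labelled and 64.4% of control resident macrophages. The shares of these 3 genes in members were thus close to those in resident macrophages. Summed marker genes of other cells stood low in the members. The 17 neutrophil markers together reached 1.06% of the neutrophil level in deletion-labelled and 1.07% in control macrophages, with 2 of them at 0 in each heart, and 14 fibroblast markers reached 1.19% of the fibroblast level in deletion-labelled and 1.55% in control macrophages. The 12 endothelial markers reached 1.57% of the endothelial level in deletion-labelled and 2.89% in control macrophages, and the 13 T and NK cell markers 1.67% of the T cell level in deletion-labelled and 2.14% in control macrophages, while 9 B cell markers were under 0.5% of theirs. Possible doublets were kept as the rule says, and a simulation-based score marked 48 deletion-labelled and 63 control members as such.

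Members made up 5.83% of the kept barcodes of the deletion-labelled heart (5.39 to 6.30) and 8.90% of those of the control heart (8.35 to 9.48). These intervals, like all others given here, hold the error of counting alone. With a single library per group the spread between hearts is unknown, so no test was run and no p-value is given. Among barcodes with a Csf1r UMI the members were 15.5% in the deletion-labelled and 20.7% in the control heart. At baseline the same rule found 36 deletion-labelled cells (0.322% of the kept barcodes) and 79 control cells (0.883%). The 36 deletion-labelled baseline cells held 0 UMIs of Gpnmb and 3 UMIs of Spp1 among 357931 UMIs, and the 79 control baseline cells 1 UMI of Gpnmb and 5 UMIs of Spp1 among 502196 UMIs. They carried Trem2 at 229 CPM in deletion-labelled and 323 CPM in control cells. Cells that met the rule at baseline thus did so through Trem2 and Ms4a7, with next to no Gpnmb.

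The sequences before the starts of 5 genes are shown because the first 3 chose the cells and the other two encode lysosomal proteases described below. Each is the 250 bases before a transcript start, 5' to 3' on the gene's own strand, from RefSeq on GRCm38.p6. Capitals mark a match, on either strand, to CACGTG (the E-box bound by MITF and TFE factors), TCATGTG (the M-box), TGANTCA (AP-1), GAGGAAG (the core of PU.1, the defining myeloid factor), TGACNNNGC (the antioxidant response element) or TTGCGCAA (C/EBP). The regions are chr6:49036268-49036517 (plus strand) for Gpnmb, chr17:48346151-48346400 (plus) for Trem2, chr19:11334696-11334945 (minus) for Ms4a7, chr12:102439093-102439342 (minus) for Lgmn and chr7:142387828-142388077 (minus) for Ctsd.
Gpnmb: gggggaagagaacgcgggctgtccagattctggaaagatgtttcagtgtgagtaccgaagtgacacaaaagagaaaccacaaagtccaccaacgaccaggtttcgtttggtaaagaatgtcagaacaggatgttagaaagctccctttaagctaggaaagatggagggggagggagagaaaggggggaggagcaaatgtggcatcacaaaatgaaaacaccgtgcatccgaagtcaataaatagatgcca
Trem2: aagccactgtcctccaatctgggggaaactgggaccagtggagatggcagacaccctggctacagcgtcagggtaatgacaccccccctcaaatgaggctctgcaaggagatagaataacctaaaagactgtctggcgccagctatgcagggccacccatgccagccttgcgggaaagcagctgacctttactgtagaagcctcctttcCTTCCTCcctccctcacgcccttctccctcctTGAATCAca
Ms4a7: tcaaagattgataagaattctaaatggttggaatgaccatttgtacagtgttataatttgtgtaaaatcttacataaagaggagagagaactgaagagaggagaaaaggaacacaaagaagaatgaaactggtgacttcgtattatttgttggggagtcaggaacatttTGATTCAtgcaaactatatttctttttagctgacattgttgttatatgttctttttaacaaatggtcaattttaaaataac
Lgmn: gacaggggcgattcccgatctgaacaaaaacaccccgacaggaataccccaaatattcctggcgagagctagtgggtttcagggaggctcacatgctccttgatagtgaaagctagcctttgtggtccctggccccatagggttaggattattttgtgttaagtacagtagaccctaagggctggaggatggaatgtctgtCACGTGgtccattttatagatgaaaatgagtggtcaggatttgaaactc
Ctsd: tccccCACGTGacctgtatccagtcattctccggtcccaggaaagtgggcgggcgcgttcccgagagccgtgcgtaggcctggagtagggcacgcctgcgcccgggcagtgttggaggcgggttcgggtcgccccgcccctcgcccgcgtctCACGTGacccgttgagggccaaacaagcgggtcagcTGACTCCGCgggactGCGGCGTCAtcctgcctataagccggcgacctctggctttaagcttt

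The Gpnmb sequence held none of these motifs. Trem2 held an AP-1 match 9 bases and a PU.1 match on the other strand 41 bases before the start. Ms4a7 held an AP-1 match 81 bases before the start shown, which is its second, and Lgmn, at its second start, held an E-box 49 bases before it. The sequence before the first start of Ms4a7 or of Lgmn, not shown, held none of these motifs. Ctsd, the gene of the lysosomal protease cathepsin D, held E-boxes 245 and 98 bases and antioxidant element matches 62 and 47 bases before its start. Across all 32851 promoters of the same length, an E-box was in 6.02%, an AP-1 match in 6.75%, a PU.1 core in 10.6%, an antioxidant element in 10.2%, an M-box in 3.25% and a C/EBP match in 0.164%. Of 30 genes named here that were looked up, 19 had an entry, and of those 3 held an E-box, 4 an AP-1 match, 7 a PU.1 core, 4 an antioxidant element and 3 an M-box in at least 1 of their promoters. Counted the same way over all 27025 genes, the shares were 6.86% for the E-box, 7.82% for AP-1, 11.5% for the antioxidant element and 3.72% for the M-box, and 3244 of these genes held a PU.1 core. A match is a description of letters and not a binding site.

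The rule used Gpnmb and Trem2, so their levels in the members are a description. Gpnmb stood at 275 CPM in deletion-labelled and 492 CPM in control members, and the members held 38.1% of all Gpnmb UMIs of the deletion-labelled and 50.1% of those of the control library. Resident macrophages, for which Gpnmb, Trem2 and Ms4a7 also entered the choice, had 248 CPM in the deletion-labelled and 169.6 CPM in the control heart. Neutrophils, fibroblasts, endothelial cells, B cells and T cells had between 2.60 and 13.7 CPM. Monocytes, defined below, lay between the resident macrophages and these cells, at 85.2 CPM in the deletion-labelled and 110.5 CPM in the control heart. Trem2 had 652 CPM in deletion-labelled and 775 CPM in control macrophages, and 763 CPM in deletion-labelled and 795 CPM in control resident macrophages. Spp1 had 11324 CPM in deletion-labelled and 14440.1 CPM in control macrophages, and 7739 CPM in deletion-labelled and 8526 CPM in control resident macrophages. Hmox1, which encodes the haem-degrading enzyme haem oxygenase, had 1783 CPM in deletion-labelled and 1847 CPM in control macrophages. Lgmn, which encodes the lysosomal protease legumain, had 1767 CPM in deletion-labelled and 1559 CPM in control macrophages. Neither Hmox1 nor Lgmn passed 2-fold over monocytes in both hearts.

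**Figure D1:**
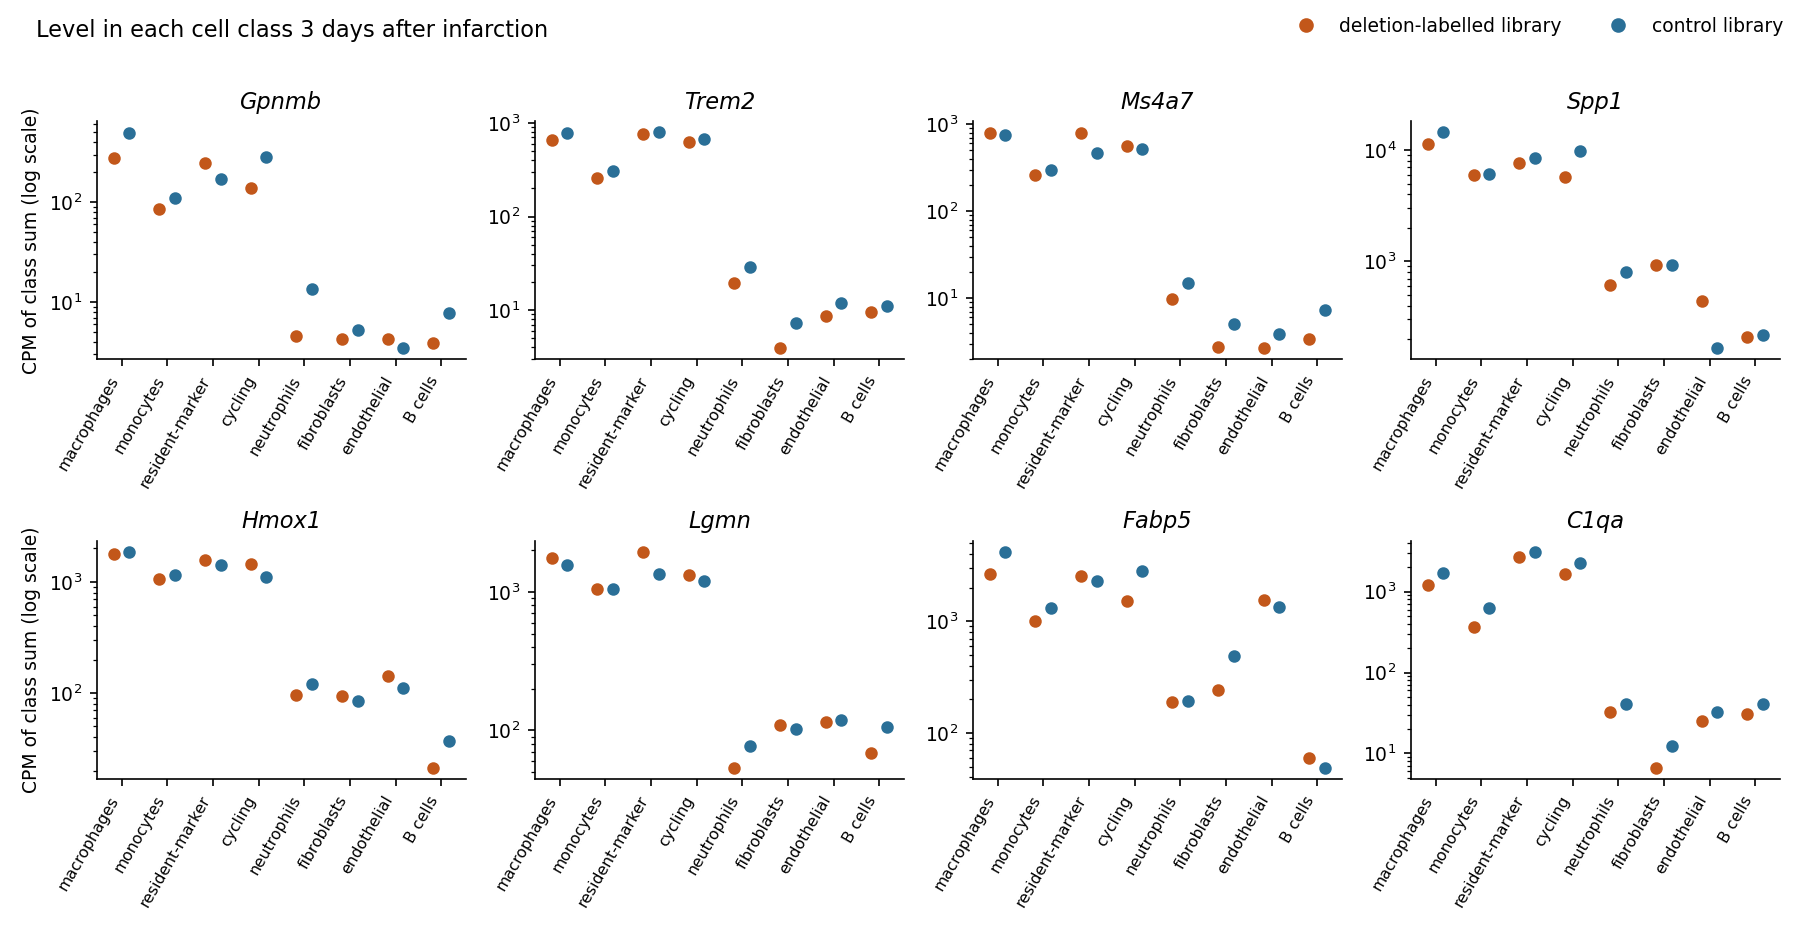
Level of the 6 marker genes and of Fabp5 and C1qa in CPM, on log axes, in each cell class of the deletion-labelled (orange) and control (blue) libraries after infarction, 1 point per class and library, with exact Poisson intervals for macrophages and monocytes that are narrower than the points. Gpnmb stands at 275 CPM in deletion-labelled and 492 CPM in control macrophages and between 3.44 and 13.7 CPM in neutrophils, fibroblasts, endothelial cells and B cells.

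The members just above the threshold, at 5 to under 7.5 UMIs of the 3 genes per 10000, were 81 deletion-labelled cells with 26.8 CPM of Gpnmb and 97 control cells with 31.6 CPM. Cells just below it, at 2.5 to under 5 with all other conditions met, were 75 deletion-labelled cells with 4.02 CPM of Gpnmb and 95 control cells with 11.3 CPM. Gpnmb is part of the sum, so its step across the threshold describes the choice. Of the markers outside the rule, Lgmn and Spp1 were higher just inside in both hearts and Hmox1 was not. Hmox1 had 1460 CPM in deletion-labelled and 1029 CPM in control cells just inside, and 1604 CPM in deletion-labelled and 1095 CPM in control cells just outside. Cd74, the invariant chain of MHC class II, had 2702 CPM in deletion-labelled and 2248 CPM in control cells just inside, and 6003 CPM in deletion-labelled and 5701 CPM in control cells just outside.

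Monocytes of the same libraries, cells with Csf1r in which Ly6c2, Chil3 and Plac8 exceeded Gpnmb, Trem2 and Ms4a7, were the cells the members were set against. There were 2315 in the deletion-labelled and 2444 in the control heart. Since the same counts chose both classes, what follows describes them and tests nothing. A gene is called higher or lower when its CPM differed at least 2-fold in the same direction in both libraries. Log2 ratios are of the summed UMIs per class as CPM, and their 95% intervals are exact binomial ones conditional on the total. Of 12538 genes with at least 30 UMIs in either class of each library, 70 (0.558%) were higher and 1741 (13.9%) lower in macrophages. The 10 lowest genes, among them Lox, Col1a2, Fbln2, Col3a1, Serpinh1, Sparc, Tagln, Col1a1 and Nedd4, are mostly fibroblast genes, with log2 ratios between -5.09 and -4.14. In these monocytes, which unlike the macrophages could hold Pdgfra or Cdh5, 14 fibroblast markers summed to 11.2% of the fibroblast level in the deletion-labelled and 12.3% in the control heart. When the macrophages' exclusions were also applied to the monocytes, 1804 deletion-labelled and 2097 control cells stayed, and the fibroblast markers summed to 1.38% in the deletion-labelled and 2.16% in the control heart. The counts were then 136 higher (1.24%) and 489 lower (4.45%) of 10999, and the ratios of those 10 genes moved to between -2.55 and -0.49. The monocytes with these exclusions are used in the rest of these results unless stated otherwise. List counts against them are to be read beside these shares of all genes, 1.24% higher and 4.45% lower. They were made up of the cells left after those cuts. These monocytes were shallower than the macrophages, with medians of 11836 UMIs in the deletion-labelled and 11500 UMIs in the control heart. The part of depth in these ratios was not tested.

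Fabp5, which encodes a fatty acid-binding protein, stood at 2668 CPM in deletion-labelled macrophages and 997 CPM in deletion-labelled monocytes, and at 4167 CPM in control macrophages and 1329 CPM in control monocytes. Its log2 ratio of macrophages over monocytes was 1.42 (1.40 to 1.44) in the deletion-labelled and 1.65 (1.63 to 1.67) in the control heart. Slc27a1, a fatty acid transporter gene, had log2 ratios of 1.57 in the deletion-labelled and 1.44 in the control heart, and Lpl, which encodes lipoprotein lipase, of 1.40 in the deletion-labelled and 1.52 in the control heart. All 3 lipid genes were thus higher than in monocytes in both hearts. In thinned cells, Fabp5 was found in 59.6% of deletion-labelled and 68.3% of control members. Resident macrophages held Fabp5 in 57.5% of deletion-labelled and 59.2% of control cells. Lpl was found in 28.0% of deletion-labelled and 26.2% of control members. Resident macrophages held Lpl in 22.0% of deletion-labelled and 23.0% of control cells. Mmp12, the gene of macrophage elastase, stood at 150.5 CPM in deletion-labelled macrophages and 33.2 CPM in deletion-labelled monocytes, and at 190.2 CPM in control macrophages and 55.7 CPM in control monocytes. Its level rested on few cells in the deletion-labelled heart. There 105 of 604 members had a UMI, and a single cell held 30.3% of the UMIs. In the control heart 231 of 886 members had a UMI, and the highest cell held 10.4%. Cells just outside the threshold, which were not members, held more Mmp12 than the members. They had 454 CPM in the deletion-labelled and 467 CPM in the control heart. Syngr1, which encodes the vesicle membrane protein synaptogyrin 1, stood at 135 CPM in deletion-labelled macrophages and 38.1 CPM in deletion-labelled monocytes, and at 226 CPM in control macrophages and 61.4 CPM in control monocytes. In thinned cells, Syngr1 was found in 18.2% of deletion-labelled and 28.2% of control members, and in 18.8% of deletion-labelled and 17.8% of control resident macrophages. Mmp12 was found in 8.45% of deletion-labelled and 11.8% of control members, and in 1.61% of deletion-labelled and 6.32% of control resident macrophages. Fcrls, an Fc receptor-like scavenger gene known from mouse microglia, had log2 ratios of 2.21 in the deletion-labelled and 1.80 in the control heart. Of the other genes named by the rule on size, Slc6a8 (creatine transport) had ratios of 1.48 in the deletion-labelled and 1.20 in the control heart, Uap1l1 (related to an enzyme of UDP-sugar synthesis) of 1.14 in the deletion-labelled and 1.17 in the control heart, and Serpinb6a (a protease inhibitor) of 1.45 in the deletion-labelled and 1.55 in the control heart.

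**Figure D2:**
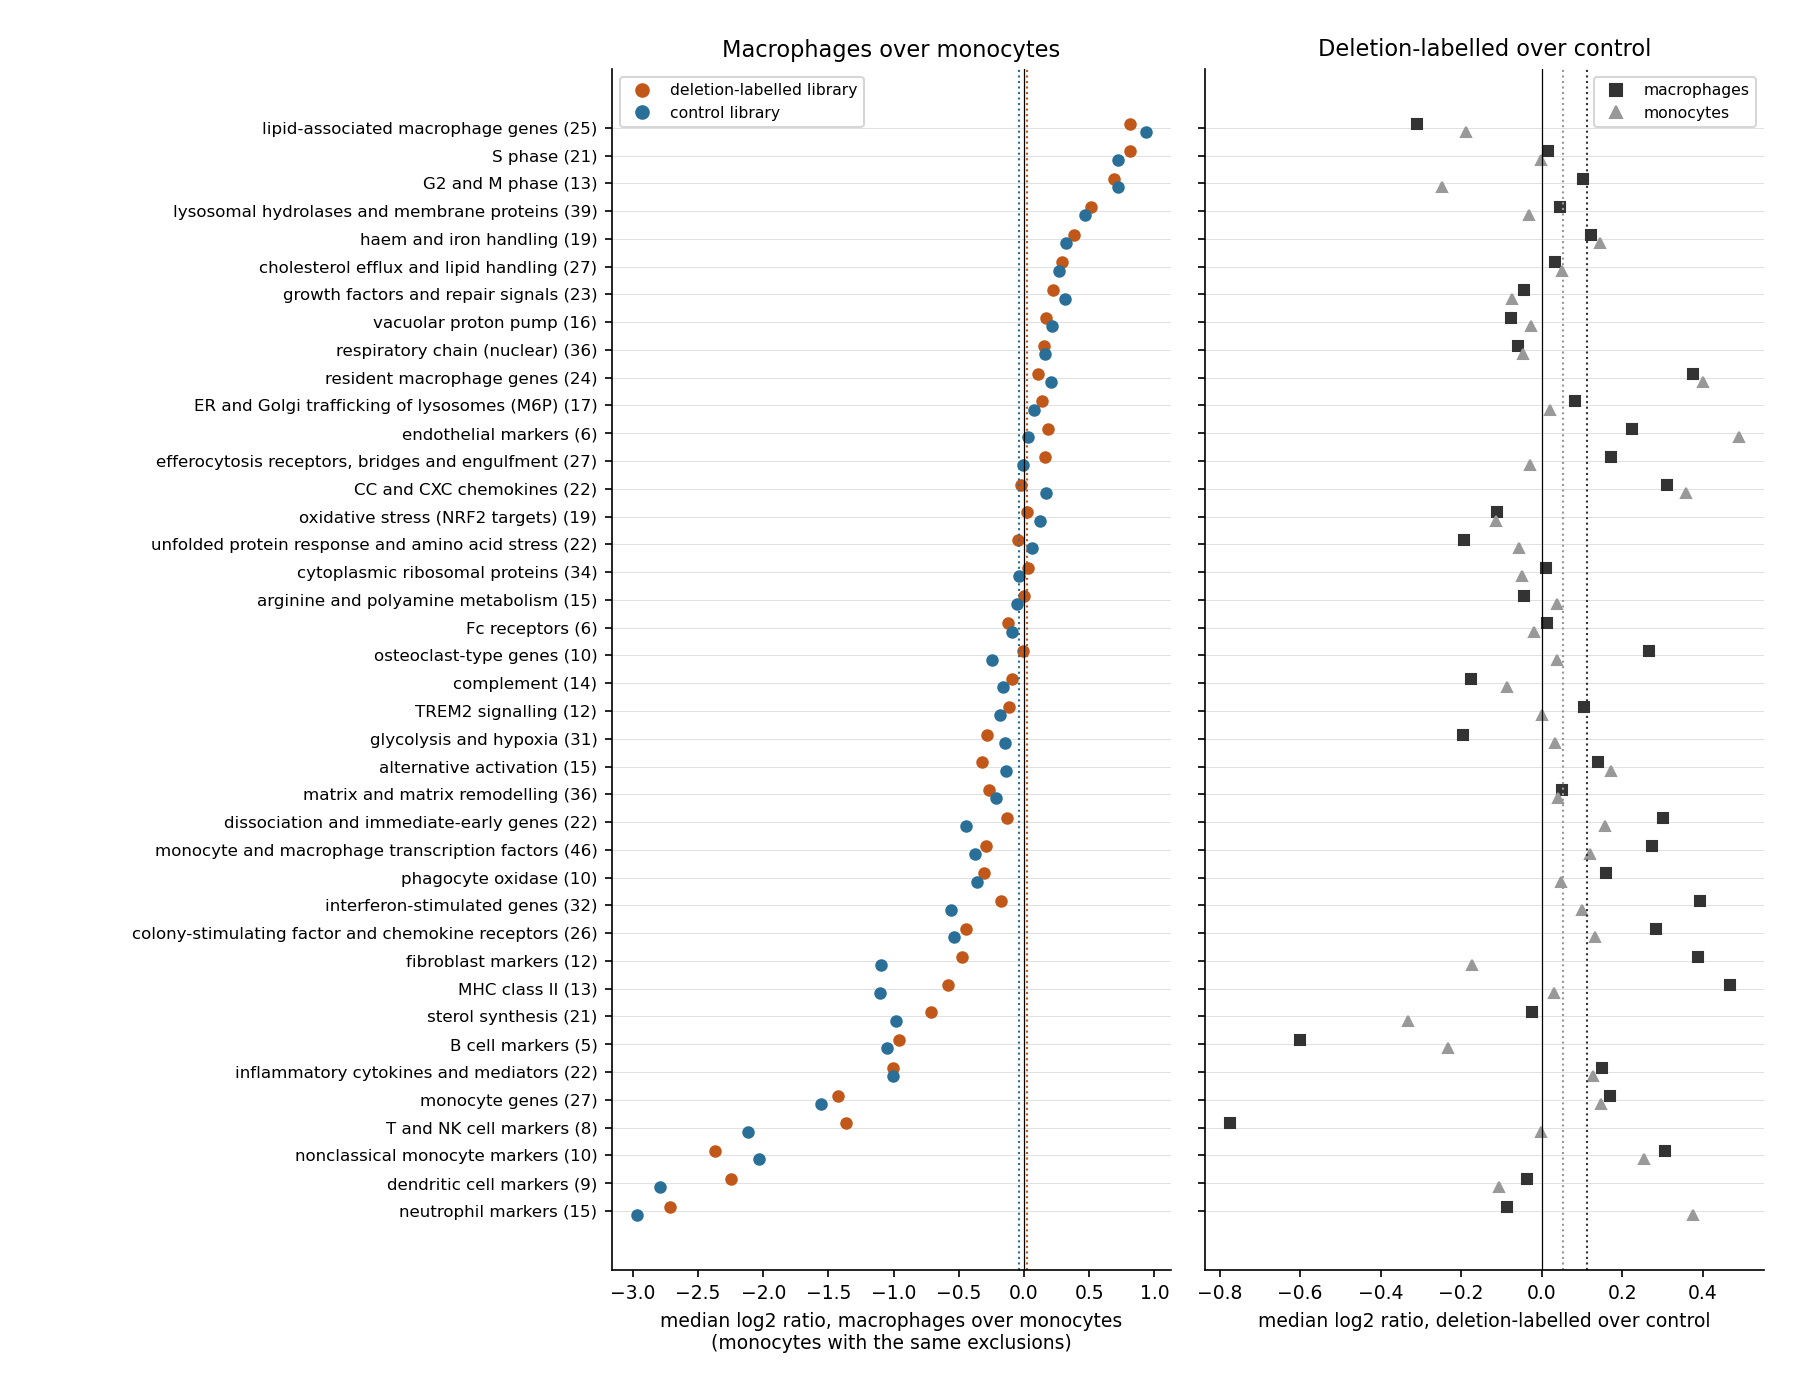
Median log2 ratio of each gene list, with the number of its genes tested on the left in brackets, for macrophages over monocytes in each library (left panel, monocytes with the same exclusions) and for deletion-labelled over control in each class (right panel), with dotted lines at the medians of all features tested. On the left, lipid-associated and lysosomal genes lie above 0 and monocyte, inflammatory and sterol synthesis genes below 0 in both libraries, and on the right MHC class II genes lie at 0.47 in macrophages and 0.03 in monocytes.

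Genes of lipid-associated macrophages, a list of 25 that holds Gpnmb and Trem2, had 7 higher and 0 lower members. Their median log2 ratio was 0.81 in the deletion-labelled and 0.93 in the control heart, beside 0.03 in the deletion-labelled and -0.04 in the control heart for all genes tested. The 7 were Gpnmb, Trem2, Fabp5, Lpl, Mmp12, Cd63 and Atp6v0d2, so 5 of them were not part of the rule. Cd63, which encodes a tetraspanin of lysosome and exosome membranes, stood at 704 CPM in deletion-labelled macrophages and 264 CPM in deletion-labelled monocytes, and at 807 CPM in control macrophages and 301 CPM in control monocytes. Atp6v0d2, a subunit gene of the vacuolar proton pump that is abundant in osteoclasts, was sparse at 9.69 CPM in deletion-labelled and 12.6 CPM in control macrophages, against 0.89 CPM in deletion-labelled and 2.70 CPM in control monocytes. Cd9, Itgax and Tyrobp, which belong to the same list, were not higher. Tyrobp, the adaptor that TREM2 signals through, had log2 ratios of -0.49 in the deletion-labelled and -0.42 in the control heart.

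Few other genes of the TREM2 pathway differed from the monocytes. Of 12 genes of TREM2 signalling, Trem2, which the rule used, was the only higher one, and Cd33, a receptor gene of the Siglec family, was lower with log2 ratios of -1.80 in the deletion-labelled and -1.64 in the control heart. Syk, the kinase that TYROBP recruits, stood at 114 CPM in deletion-labelled macrophages and 153 CPM in deletion-labelled monocytes, and at 109 CPM in control macrophages and 153 CPM in control monocytes. Plcg2, the phospholipase next in the pathway, had log2 ratios of -0.57 in the deletion-labelled and -0.40 in the control heart, and Lat2, an adaptor gene, of 0.63 in the deletion-labelled and 0.62 in the control heart. Median log2 ratios of the 12 genes were -0.11 in the deletion-labelled and -0.19 in the control heart.

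Lysosomal genes stood above the monocytes as a broad shift of moderate size. Of 39 hydrolase and membrane protein genes, 3 were higher and 0 lower by the 2-fold rule, while their median was 0.52 in the deletion-labelled and 0.47 in the control heart. Ctsb, the gene of cathepsin B, stood at 5982 CPM in deletion-labelled macrophages and 3007 CPM in deletion-labelled monocytes, and at 6423 CPM in control macrophages and 3360.0 CPM in control monocytes, with log2 ratios of 0.99 (0.98 to 1.01) in the deletion-labelled and 0.93 (0.92 to 0.95) in the control heart. Ctsd stood at 4029.6 CPM in deletion-labelled macrophages and 2205 CPM in deletion-labelled monocytes, and at 4917 CPM in control macrophages and 2539 CPM in control monocytes. Both cathepsins fell just short of 2-fold, though against the monocytes as first defined Ctsb had ratios of 1.14 in the deletion-labelled and 1.06 in the control heart and Ctsd of 1.03 in the deletion-labelled and 1.08 in the control heart. Lipa (lysosomal acid lipase) had ratios of 0.96 in the deletion-labelled and 0.87 in the control heart, Hexa (a hexosaminidase subunit) of 0.82 in the deletion-labelled and 0.75 in the control heart, and Grn (progranulin) of 0.80 in the deletion-labelled and 0.65 in the control heart. The 3 genes past the rule were Cd63, Naglu and Ctsk. Naglu, an enzyme gene of heparan sulphate breakdown, had log2 ratios of 1.07 in the deletion-labelled and 1.07 in the control heart. Ctsk, the gene of cathepsin K, a collagen-cutting protease of osteoclasts, rested in the deletion-labelled heart on a single cell with 80.6% of its UMIs. Lamp2, a gene of the lysosomal membrane, had log2 ratios of -0.12 in the deletion-labelled and -0.22 in the control heart. The 16 genes of the vacuolar proton pump had medians of 0.17 in the deletion-labelled and 0.22 in the control heart with 1 higher, Atp6v0d2, and 17 genes that carry enzymes to lysosomes had medians of 0.14 in the deletion-labelled and 0.08 in the control heart with none past the rule.

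Among 27 genes of cholesterol efflux and lipid handling, 3 were higher (Abca1, Lpl and Fabp5) and 1 lower, with medians of 0.29 in the deletion-labelled and 0.27 in the control heart. Abca1, the gene of the transporter that loads cholesterol onto apolipoproteins, stood at 198 CPM in deletion-labelled macrophages and 89.2 CPM in deletion-labelled monocytes, and at 132 CPM in control macrophages and 65.7 CPM in control monocytes. Apoe, the apolipoprotein gene that macrophages secrete, had log2 ratios of 0.75 in the deletion-labelled and 0.78 in the control heart. Of 21 genes of sterol synthesis and its control, 0 were higher and 7 lower, beside 1.24% higher and 4.45% lower of all genes. Among the 7 were Idi1, Fdps, Sqle, Cyp51, Sc5d and Stard4. Cyp51, which encodes a demethylase of the pathway, had 14.5 CPM in deletion-labelled and 14.7 CPM in control macrophages, against 38.2 CPM in deletion-labelled and 56.7 CPM in control monocytes. The median of the list was -0.71 in the deletion-labelled and -0.99 in the control heart.

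The medians were -0.09 in the deletion-labelled and -0.16 in the control heart for the complement genes and 0.16 in the deletion-labelled and -0.01 in the control heart for the clearance genes. C1qa stood at 1207 CPM in deletion-labelled macrophages and 363 CPM in deletion-labelled monocytes, and at 1687 CPM in control macrophages and 626 CPM in control monocytes. The 3 chains of C1q, the complement component that tags dying cells, had log2 ratios of 1.73 in the deletion-labelled and 1.43 in the control heart for C1qa, 1.40 in the deletion-labelled and 1.40 in the control heart for C1qb and 1.53 in the deletion-labelled and 1.39 in the control heart for C1qc. All C1q levels were still below those of resident macrophages, which had 2667 CPM of C1qa in the deletion-labelled and 3107 CPM in the control heart. Gas6, the bridge between dying cells and the receptor MERTK, stood at 74.3 CPM in deletion-labelled macrophages and 19.8 CPM in deletion-labelled monocytes, and at 50.8 CPM in control macrophages and 14.8 CPM in control monocytes, and Mertk had log2 ratios of 0.94 in the deletion-labelled and 0.82 in the control heart. Of 27 genes of clearance tested, 4 were higher (the C1q genes and Gas6) and 0 lower. Among 14 complement genes, Vsig4, a complement receptor of resident macrophages, was also higher, but 9 deletion-labelled and 8 control cells held all its UMIs. C3, the central complement protein, was lower, with log2 ratios of -1.75 in the deletion-labelled and -2.13 in the control heart.

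Haem and iron genes had a median of 0.38 in the deletion-labelled and 0.32 in the control heart. Of 19 tested, 0 were higher and 1 lower, Steap4, a metal reductase gene with ratios of -1.60 in the deletion-labelled and -2.16 in the control heart. Hmox1 stood at 1783 CPM in deletion-labelled macrophages and 1065 CPM in deletion-labelled monocytes, and at 1847 CPM in control macrophages and 1157 CPM in control monocytes. Its level came from a minority of the cells, since the median member had 349 CPM in the deletion-labelled and 579.9 CPM in the control heart while the 90th percentile was 5605 CPM in the deletion-labelled and 4672 CPM in the control heart. Slc48a1, which brings haem out of the lysosome, had log2 ratios of 1.01 in the deletion-labelled and 0.99 in the control heart, Blvrb (biliverdin reductase B) of 0.92 in the deletion-labelled and 0.81 in the control heart, and the ferritin light chain gene Ftl1 of 0.66 in the deletion-labelled and 0.76 in the control heart. Of 19 oxidative stress genes that NRF2 drives, 0 were higher and 2 lower, the cystine transporter gene Slc7a11, with ratios of -1.20 in the deletion-labelled and -1.13 in the control heart, and the glutathione reductase gene Gsr, with ratios of -1.67 in the deletion-labelled and -1.67 in the control heart.

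Genes of arriving monocytes were lower in the members, beyond the 3 genes of the rule. Of 27 monocyte genes, 14 were lower, 3 of them in the rule, and 0 higher, with medians of -1.43 in the deletion-labelled and -1.55 in the control heart. The 10 lowest genes of all included Lcn2, Plac8, Wfdc21, Ifitm6, Chil3, Ly6c2, Itgal, Il1b and Ifitm1. Vcan, the gene of the matrix proteoglycan versican, stood at 81.1 CPM in deletion-labelled macrophages and 464 CPM in deletion-labelled monocytes, and at 71.2 CPM in control macrophages and 350.4 CPM in control monocytes. Ccr2, the receptor gene for CCL2, had ratios of -0.70 in the deletion-labelled and -1.41 in the control heart. Lcn2 and Wfdc21 are also abundant in neutrophils, and the neutrophil marker sum was 6.62% of the neutrophil level in deletion-labelled and 5.80% in control monocytes. The part of neutrophil RNA in these ratios was not tested.

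Of 22 inflammatory genes tested, 0 were higher and 9 lower, beside 1.24% higher and 4.45% lower of all genes. The 9 were Il1b, Nlrp3, Ptgs2, Nos2, Ccl5, Cd80, Clec4e, Acod1 and Il23a. The median was -1.01 in the deletion-labelled and -1.01 in the control heart. Il1b, the gene of interleukin-1 beta, stood at 300.4 CPM in deletion-labelled macrophages and 2004 CPM in deletion-labelled monocytes, and at 227 CPM in control macrophages and 1515 CPM in control monocytes. Its log2 ratios were -2.74 (-2.79 to -2.69) in the deletion-labelled and -2.74 (-2.79 to -2.69) in the control heart. Ptgs2, the gene of the prostaglandin-forming enzyme COX-2, had ratios of -1.38 in the deletion-labelled and -1.10 in the control heart, and Nlrp3, the inflammasome sensor gene, of -1.17 in the deletion-labelled and -1.01 in the control heart. The decoy receptor gene Il1r2 was lower too, with ratios of -3.57 in the deletion-labelled and -2.97 in the control heart, and so were 5 more of the 26 receptor genes tested, Csf2rb, Csf3r, Il17ra, Fpr1 and Fpr2. Neutrophils had 15580.4 CPM of Il1b in the deletion-labelled and 13443 CPM in the control heart. The neutrophil markers summed to 1.06% of the neutrophil level in deletion-labelled and 1.07% in control macrophages, against 6.62% in deletion-labelled and 5.80% in control monocytes, and their part in these ratios was not tested.

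Chemokines, growth factors and matrix genes differed gene by gene. Of 22 chemokine genes, Cxcl16, Pf4 and Ccl8 were higher and Ccl5 and Cxcl12 lower. Cxcl16, which encodes a membrane-bound chemokine that also scavenges oxidised lipoprotein, stood at 269 CPM in deletion-labelled macrophages and 100.4 CPM in deletion-labelled monocytes, and at 271 CPM in control macrophages and 133 CPM in control monocytes. Pf4 (platelet factor 4) had ratios of 1.03 in the deletion-labelled and 1.17 in the control heart. Of 23 growth factor and repair genes, Igf1, Vegfb, Pdgfc, Gdf15 and Nrp1 were higher and Csf1, Nrg1 and Wnt11 lower. Igf1, the gene of insulin-like growth factor 1, stood at 45.3 CPM in deletion-labelled macrophages and 14.5 CPM in deletion-labelled monocytes, and at 51.2 CPM in control macrophages and 13.6 CPM in control monocytes. Gdf15, a stress-induced cytokine gene, had ratios of 1.19 in the deletion-labelled and 1.47 in the control heart. Of 36 matrix genes, Mmp12 and the metalloproteinase inhibitor gene Timp2 were higher, and Thbs1 (thrombospondin 1) and Vcan lower. Among all genes tested, 1.24% were higher and 4.45% lower, and the count of lower matrix genes was near that share. Spp1 was short of 2-fold in the deletion-labelled heart, with log2 ratios of 0.93 in the deletion-labelled and 1.23 in the control heart, where the monocytes as first defined gave 1.14 in the deletion-labelled heart.

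Arg1 and Mrc1, often used as marks of alternative activation, did not reach 2-fold. Arg1, the gene of arginase 1, stood at 915 CPM in deletion-labelled macrophages and 943 CPM in deletion-labelled monocytes, and at 1466 CPM in control macrophages and 1066 CPM in control monocytes. Mrc1, the gene of the mannose receptor, had log2 ratios of 0.91 in the deletion-labelled and 0.94 in the control heart. Of 15 alternative activation genes none passed the rule in either direction. MHC class II genes had medians of -0.58 in the deletion-labelled and -1.10 in the control heart, and Ciita, their master regulator, H2-Oa, H2-Ob and H2-DMb2 were lower, 4 of 13 tested. H2-Aa, an MHC class II alpha chain gene, stood at 538 CPM in deletion-labelled macrophages and 739.5 CPM in deletion-labelled monocytes, and at 325 CPM in control macrophages and 683 CPM in control monocytes. Among 46 transcription factor genes, the repressor gene Bhlhe41 was higher, with ratios of 2.22 in the deletion-labelled and 1.73 in the control heart. Cebpd, Egr1, Nr4a1 and Irf4 were lower, beside 1.24% higher and 4.45% lower of all genes. Mitf, which drives Gpnmb, had ratios of 0.38 in the deletion-labelled and 0.27 in the control heart, and Tfeb and Tfe3 lay between -0.37 and -0.13. Ribosomal protein genes had medians of 0.03 in the deletion-labelled and -0.04 in the control heart and genes of the respiratory chain of 0.15 in the deletion-labelled and 0.16 in the control heart, with none past the rule in either list. Although both classes were cut at 3 UMIs of Mki67 and Top2a, 21 S phase genes had medians of 0.81 in the deletion-labelled and 0.72 in the control heart. With the monocytes as first defined, cycling cells included, the S phase medians were -0.28 in the deletion-labelled and -0.37 in the control heart.

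The members differed among themselves along the score that chose them, the summed UMIs of Gpnmb, Trem2 and Ms4a7 per 10000. The median score was 14.7 in the deletion-labelled and 17.4 in the control heart, and each library was split into tertiles of 201 to 202 deletion-labelled and 295 to 296 control cells. Fabp5 had 1334, 2661 and 4059 CPM from the lowest to the highest tertile of deletion-labelled cells, and 1467, 3610.0 and 7203 CPM in control cells. Ctsb had 4183, 6083 and 7728 CPM in deletion-labelled and 3989, 6386 and 8662 CPM in control cells. Both genes were thus higher in each higher tertile of both hearts. Arg1 ran the other way, with 1405, 973 and 341 CPM in deletion-labelled and 2350.3, 1373 and 766 CPM in control cells. Cd74 had 2413, 1503 and 1389.8 CPM in deletion-labelled and 2188, 1106 and 499 CPM in control cells. Il1b and Mmp12 were also highest in the lowest tertile of both hearts. Median depth was 18654, 19522 and 16550 UMIs over the tertiles of deletion-labelled cells and 17015, 19277 and 18881.5 UMIs over those of control cells.

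**Figure D3:**
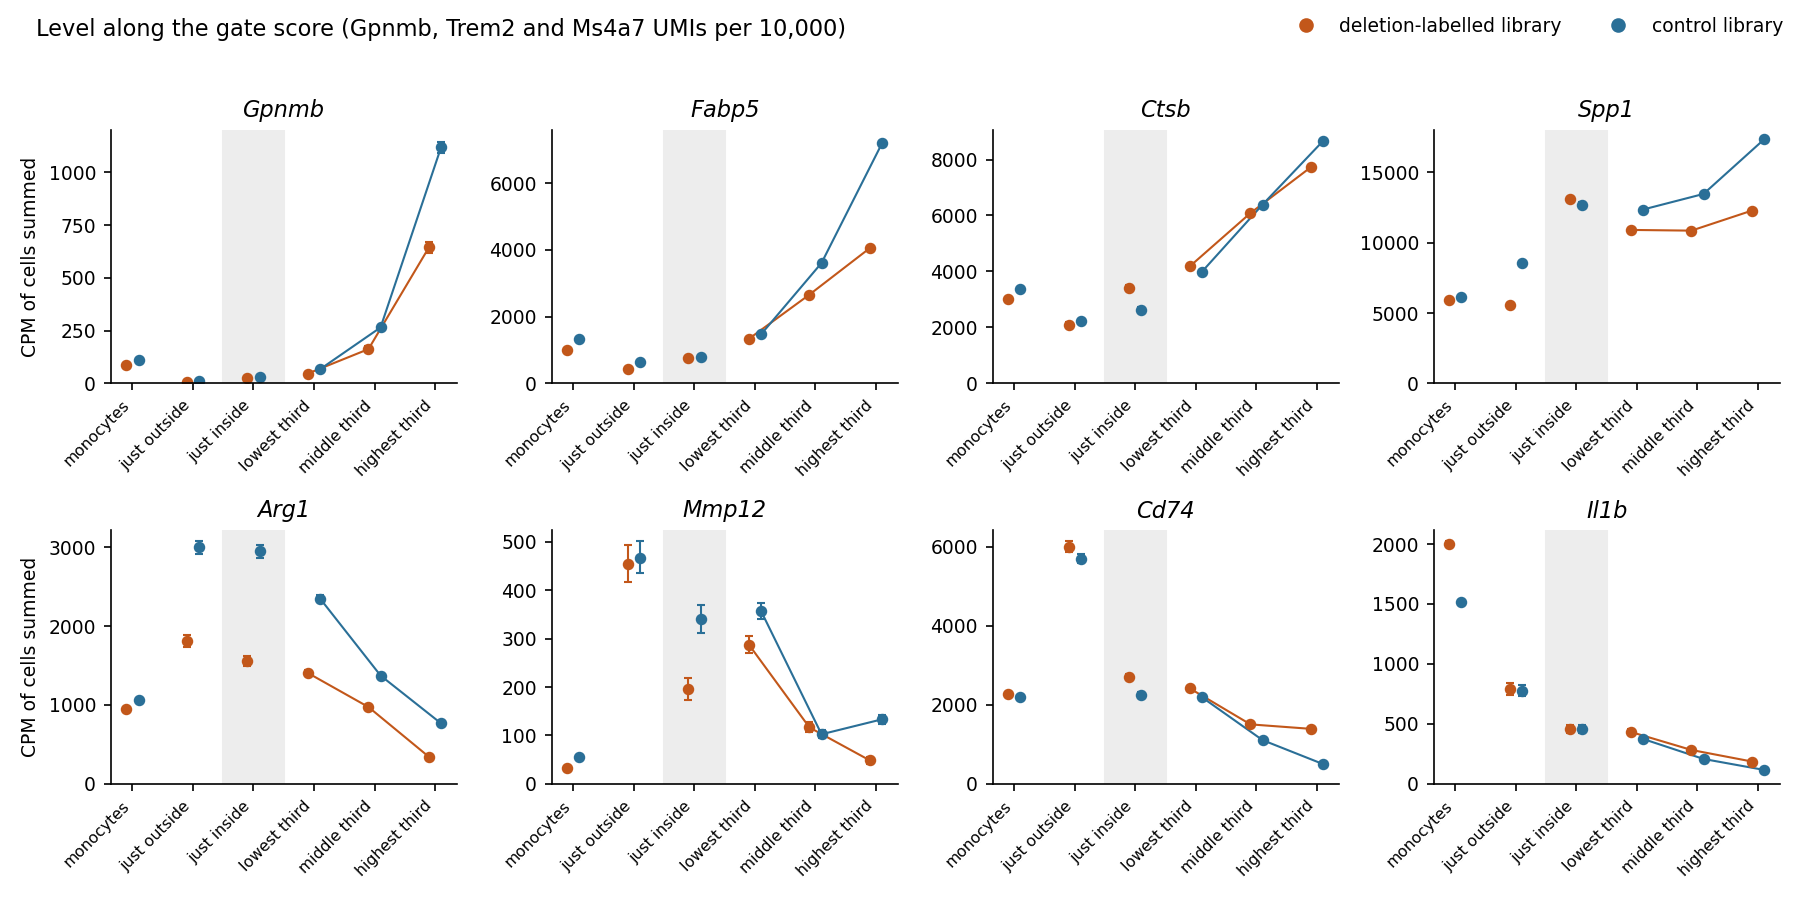
Level in CPM, on linear axes, of 8 genes in monocytes, in cells just outside and just inside (shaded) the threshold and in the lowest, middle and highest tertile of the members' score, with exact Poisson intervals, for the deletion-labelled (orange) and control (blue) libraries. Fabp5 and Ctsb are highest in the highest tertile, and Arg1 and Cd74 in the cells just outside the threshold, in both libraries.

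The 3 genes of the rule ran together weakly or not at all within the members. Across 578 deletion-labelled and 865 control cells, each thinned to 5000 UMIs, the rank correlation of Gpnmb with Trem2 was 0.09 in deletion-labelled and 0.21 in control macrophages, and with Ms4a7 0.00 in deletion-labelled and 0.12 in control macrophages. Selection on the sum of the 3 genes bears on these values, and cells of a library share its preparation, so they are descriptions. Gpnmb ran instead with Ctsb, at 0.53 in deletion-labelled and 0.59 in control macrophages, with Lgals3 (galectin-3), at 0.48 in deletion-labelled and 0.57 in control macrophages, and with Fabp5, at 0.45 in deletion-labelled and 0.58 in control macrophages. Ctsb and Ctsd had 0.71 in deletion-labelled and 0.67 in control macrophages. A second pair, Cd74 and H2-Aa, had 0.73 in deletion-labelled and 0.62 in control macrophages, and Cd74 ran against Pf4, at -0.38 in deletion-labelled and -0.37 in control macrophages. Arg1 ran with Pf4, at 0.43 in deletion-labelled and 0.38 in control macrophages, and against Ms4a7, at -0.26 in deletion-labelled and -0.26 in control macrophages.

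The spread from cell to cell differed between genes, and for Trem2 and Gpnmb the rule sets part of it. Lgmn ran from 682 CPM at the 10th to 2793 CPM at the 90th percentile of deletion-labelled cells, and from 571 to 2548 CPM in control cells. Trem2 ran from 201 to 1191 CPM in deletion-labelled and from 320.2 to 1279.9 CPM in control cells. Gpnmb had a median of 0 CPM and a 90th percentile of 741 CPM in deletion-labelled cells, and a median of 112 CPM and a 90th percentile of 1355 CPM in control cells. Cd74 had a median of 122 CPM and a 90th percentile of 6869 CPM in deletion-labelled cells, and a median of 82.0 CPM and a 90th percentile of 4264 CPM in control cells.

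**Figure D4:**
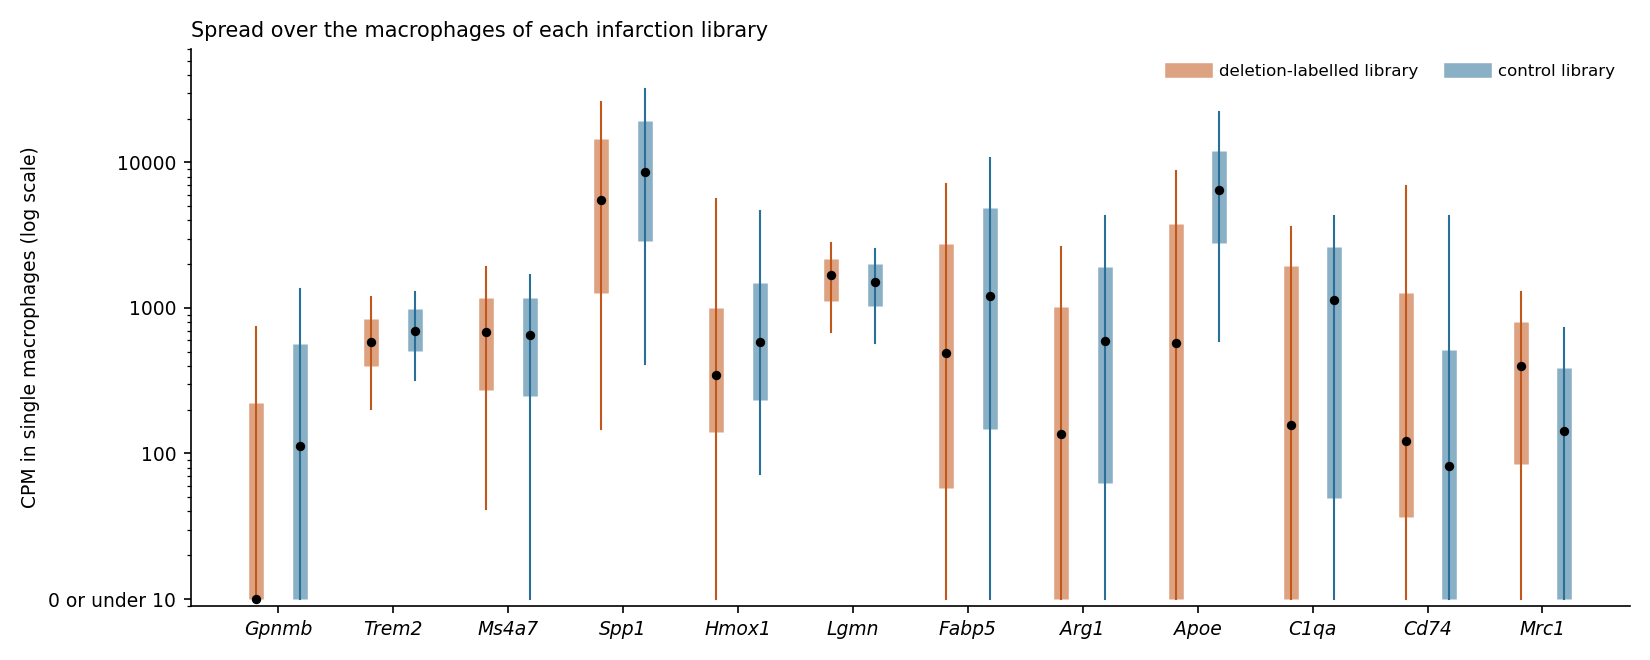
Level per cell in CPM, on a log axis, of selected genes in the deletion-labelled and control members, with black dots at the median, bars from the 25th to the 75th percentile and lines from the 10th to the 90th, and values at 0 or under 10 drawn at 10. Lgmn, which the rule did not use, lies well above 0 in most cells, and the median of Gpnmb is 0 CPM in deletion-labelled and 112 CPM in control cells.

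Deletion-labelled macrophages were then compared with control macrophages, which asks whether these cells differ where the deletion is aimed at fibroblasts. A gene is called higher or lower here when CPM differed at least 1.5-fold between the hearts. Of 10383 genes with at least 30 UMIs in either, 671 (6.46%) were higher and 261 (2.51%) lower in the deletion-labelled macrophages. The median log2 ratio of all genes was 0.11, and with the class sums scaled by the median of ratios instead it was -0.01, with 394 genes higher and 392 lower. The sign of ratios close to 0 thus depends on the scaling. In the monocytes of the same hearts 4.25% of 11470 genes were higher and 2.51% lower. With 1 library per group, genotype, heart and preparation cannot be told apart.

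**Figure D5:**
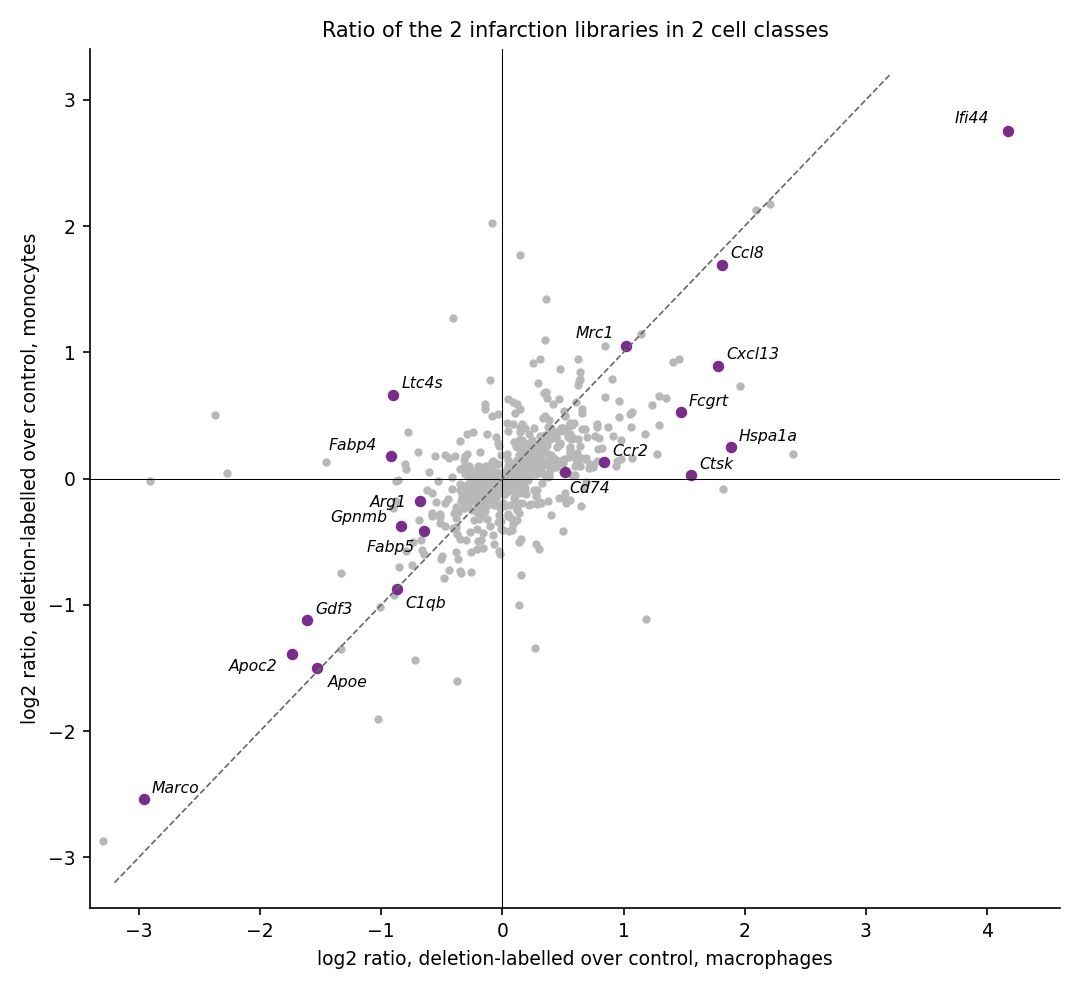
Log2 ratio of deletion-labelled over control in macrophages (horizontal) and in monocytes (vertical) for the named genes and the members of the lists, with a dashed line of equality and 7 of 708 genes outside the axes. Apoe lies at -1.53 in macrophages and -1.50 in monocytes and Mrc1 at 1.02 in macrophages and 1.05 in monocytes, whereas Ccr2 lies at 0.84 in macrophages and 0.13 in monocytes.

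Of the 6 marker genes, Gpnmb alone passed the 1.5-fold rule. It had 275 CPM in deletion-labelled and 492 CPM in control macrophages, a log2 ratio of -0.84 (-0.90 to -0.78), and -0.37 in monocytes. The log2 ratio was -0.25 for Trem2, 0.06 for Ms4a7, -0.35 for Spp1, -0.05 for Hmox1 and 0.18 for Lgmn. Gpnmb is part of the score and each library was split on its own, so its levels by tertile describe the choice. In the highest tertile Gpnmb had 644 CPM in deletion-labelled and 1119 CPM in control cells. Ms4a7, also part of the score, had 1440 CPM in deletion-labelled and 1188 CPM in control cells there.

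Of 25 lipid-associated genes, 4 passed the 1.5-fold rule downwards and 0 upwards in deletion-labelled macrophages. Their median log2 ratio was -0.31, beside 0.11 for all genes. Of all genes, 2.51% were lower and 6.46% higher. The monocytes leaned the same way, as 3 of the 25 were lower there and 0 higher, and their median was -0.19. The 4 genes in macrophages were Gpnmb, Apoe, Fabp5 and Fabp4. The list holds Gpnmb and Trem2, which chose the members, so their part in these values describes the choice. Fabp4 had 109.6 CPM in deletion-labelled and 208 CPM in control macrophages. Endothelial cells, however, had 11802 CPM of it in the deletion-labelled and 8459 CPM in the control heart. The endothelial markers, a list that holds Fabp4 itself, summed to 329.6 CPM in deletion-labelled and 449.7 CPM in control macrophages. That sum therefore cannot show how much endothelial RNA the members held apart from Fabp4. The part of endothelial RNA in the Fabp4 ratio was not tested. Apoe had 3120.2 CPM in deletion-labelled and 8992 CPM in control macrophages, with a log2 ratio of -1.53 (-1.54 to -1.51). It was found in 447 of 604 deletion-labelled and 876 of 886 control members, and the median cell had 578 CPM in the deletion-labelled and 6433 CPM in the control heart. Thinned to 2000 UMIs, 55.2% of deletion-labelled and 92.0% of control macrophages held it, against 34.6% of deletion-labelled and 73.3% of control B cells, which should not make it. The lower counts were thus spread over the members, but B cells also held Apoe less often in the deletion-labelled heart. These shares therefore cannot tell Apoe made by the members from free RNA. Apoe was lower in other cells too, with log2 ratios of -1.50 in monocytes and -1.33 in resident macrophages after infarction. At baseline its log2 ratio was 0.11 in resident macrophages. B cells had 531 CPM in the deletion-labelled and 1290.2 CPM in the control heart, and fibroblasts, with 600.1 CPM in the deletion-labelled and 155 CPM in the control heart, differed in the opposite direction. The part of free Apoe RNA in the difference was not tested. Apoc2, a neighbouring apolipoprotein gene, had 83.0 CPM in deletion-labelled and 277 CPM in control macrophages, and -1.39 as log2 ratio in monocytes. Fabp5 had 2668 CPM in deletion-labelled and 4167 CPM in control macrophages, a log2 ratio of -0.64 (-0.66 to -0.62). In the other direction, Pltp, which encodes a phospholipid transfer protein, had a log2 ratio of 0.98. Abca1 had 0.59, and 0.46, short of 1.5-fold, with the median-of-ratios scaling.

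Of the C1q genes, C1qb was lower by the 1.5-fold rule. C1qb had 1244 CPM in deletion-labelled and 2279 CPM in control macrophages, a log2 ratio of -0.87 (-0.90 to -0.85), and C1qa and C1qc had -0.48 and -0.51, short of the rule. Monocytes gave -0.88 for C1qb. C3 and Cfb, of the alternative pathway, were higher at 0.70 for C3 and 0.64 for Cfb, but with the median-of-ratios scaling they stood at 0.58 for C3 and 0.51 for Cfb, short of the rule. Of 14 complement genes 3 were higher and 2 lower, beside 6.46% higher and 2.51% lower of all genes. Gdf3, a growth factor gene of the TGF-beta family, had 30.8 CPM in deletion-labelled and 94.2 CPM in control macrophages, and was found in 69 of 604 deletion-labelled and 259 of 886 control members. Arg1 had 915 CPM in deletion-labelled and 1466 CPM in control macrophages, a log2 ratio of -0.68 (-0.71 to -0.65), and -0.18 in monocytes. The scavenger receptor gene Marco had a log2 ratio of -2.96, but 39 control members held all its UMIs there, the top 5 of them 74.3%.

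MHC class II genes, which present antigen, and Ccr2, a gene of recently arrived monocytes, stood higher in the deletion-labelled macrophages. Of 11 MHC class II genes tested, 4 were higher, Ciita, H2-Eb1, H2-Aa and H2-Ab1, and 1 lower, H2-DMb2, with a median of 0.47, while 0 of 13 were higher or lower in monocytes. Beside these counts, 6.46% of all genes were higher and 2.51% lower in macrophages, and 4.25% higher and 2.51% lower in monocytes. With the median-of-ratios scaling, H2-Ab1 stood at 0.47, short of the rule, against 0.60. H2-Aa had 538 CPM in deletion-labelled and 325 CPM in control macrophages, a log2 ratio of 0.72 (0.67 to 0.78), and 0.11 in monocytes. Ccr2 had 323 CPM in deletion-labelled and 181 CPM in control macrophages, a log2 ratio of 0.84 (0.77 to 0.90), and 0.13 in monocytes. It was found in 75.3% of deletion-labelled and 63.4% of control members, and, thinned to 2000 UMIs, in 38.5% of deletion-labelled and 27.8% of control members, against 1.14% of deletion-labelled and 2.28% of control B cells. Whether macrophages and monocytes differ in these ratios beyond the spread between hearts was not tested.

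Interferon-stimulated genes had 11 of 32 higher and 0 lower in the deletion-labelled macrophages, with a median of 0.39, and 2 higher and 0 lower in the monocytes. Of all genes, 6.46% were higher in macrophages and 4.25% in monocytes. Ifi27l2a had 671 CPM in deletion-labelled and 319 CPM in control macrophages, a log2 ratio of 1.07 (1.02 to 1.12), and 0.53 in monocytes. Stat2, which carries the interferon signal, had a log2 ratio of 0.82. Ifi44 had the highest ratio, 4.18, on 121 deletion-labelled and 10 control UMIs. Isg15 did not pass the rule, at 0.38, nor did Ifit1, at -0.10.

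Resident macrophage genes had 7 of 24 higher and 1 lower, although cells rich in Lyve1, Folr2 and Cbr2 were left out of both groups. In the monocytes 9 of 25 were higher and 0 lower, and the medians were 0.37 in macrophages and 0.40 in monocytes. Of all genes, 6.46% were higher and 2.51% lower in macrophages, and 4.25% higher and 2.51% lower in monocytes. Mrc1 had 569.8 CPM in deletion-labelled and 281 CPM in control macrophages, a log2 ratio of 1.02 (0.97 to 1.07), and 1.05 in monocytes. Fcgrt, the gene of the neonatal Fc receptor, had 73.9 CPM in deletion-labelled and 26.7 CPM in control macrophages, and Maf, a transcription factor gene of macrophage identity, 537 CPM in deletion-labelled and 313 CPM in control macrophages. These 3 genes had log2 ratios of 0.85, 0.79 and 0.74 in the resident macrophages themselves. Pira2, an immunoglobulin-like receptor gene with many near-identical relatives, had 105 CPM in deletion-labelled and 47.8 CPM in control macrophages, and its counts are uncertain for that reason. Chemokine genes had 7 of 22 higher and 2 lower, though Ccl5, among the 7 at 0.69, stood at 0.56 with the median-of-ratios scaling, short of the rule. In monocytes 8 of 24 chemokine genes were higher and 3 lower. Ccl8, which attracts monocytes, had 168 CPM in deletion-labelled and 47.8 CPM in control macrophages. It was in 132 of 604 deletion-labelled and 86 of 886 control members, and its log2 ratio of 1.81 was 1.82 without the 5 cells that held most of its UMIs in each heart. The B-cell chemokine gene Cxcl13 turned instead, at 1.78 with all cells and -3.67 without those 5, as 7 deletion-labelled and 13 control cells held all its UMIs. Ctsk turned in the same way, at 1.56 and -1.17.

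Few lysosomal genes passed the rule, with 1 of 39 higher (Ctsk), 0 lower and a median of 0.05. Ctsb had a log2 ratio of -0.10 and Ctsd of -0.29. Ribosomal protein genes had a median of 0.01 and respiratory chain genes of -0.06, with none past the rule. Of 22 immediate-early and heat-shock genes, which rise during tissue digestion, 3 were higher (Hspa1a, Hspa1b and Zfp36) with a median of 0.30. The share higher among all genes was 6.46%. Zfp36 had a log2 ratio of 0.63, and 0.50, short of the rule, with the median-of-ratios scaling. The part of these genes in the other differences was not tested.

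The most extreme ratios of all belonged to genes that were near absent from 1 of the libraries. Ifi202b had 987 UMIs in 350 of 604 deletion-labelled members and 0 UMIs in control members, which is at least 492-fold higher against a floor of 3 UMIs in the control sum. Hal, which encodes histidine ammonia-lyase, had 1737 UMIs in 273 deletion-labelled cells and 15 UMIs in 12 control cells. Gm10260 had 1 UMI in deletion-labelled and 1014 UMIs in control members, a log2 ratio of -7.82 (-14.71 to -6.92). These genes were far apart in the monocytes too, with log2 ratios of 6.29 for Hal and -8.19 for Gm10260, and Ifi202b was at 0 UMIs in the control monocytes as well. Gm10076 and BC004004 had log2 ratios of -1.01 and -1.34 in macrophages and -1.02 and -1.35 in monocytes. The globin genes Hbb-bs, Hbb-bt, Hba-a1 and Hba-a2 were in this group through few cells, as 5 deletion-labelled cells held 97.9% of the 7632 Hbb-bs UMIs, against 24 UMIs in the control members. Cd24a, with a ratio of -0.80, and Ltc4s, the leukotriene C4 synthase gene, with -0.90 (-0.19 when the threshold was 10 in place of 5 UMIs per 10000), complete the genes named by size. The rule left out Mmp9, Ccrl2 and Fabp4 from the naming because another class of cells held at least 10 times their level.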

How the data were processed

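The deposited files hold UMI counts per gene and barcode as filtered matrices, made with Cell Ranger 5.0.1 on mm10 per the submitters' processing notes. The 4 libraries held 55710468 to 129704045 UMIs in 9149 to 11541 barcodes. Barcodes with at least 500 UMIs and at most 20% mitochondrial UMIs were kept.

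UMIs were summed over the barcodes of a class in each library and scaled to CPM, and features with at least 30 UMIs in 1 of the 2 sums compared were tested against the size rules. A sum under 3 UMIs was raised to a floor of 3 for a fold. Counts for gene lists are over their members that passed the 30 UMI minimum. CPM intervals are exact Poisson, and those of shares and ratios exact binomial (Clopper-Pearson), all at 95%, and they leave out variation between animals. PCR and droplet steps were not modelled beyond the UMIs.

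Doublet scores came from Scrublet in scanpy. Its automatic threshold called 5 barcodes in the deletion-labelled and 0 in the control infarction library and so had not worked, and the highest scores at a rate of 0.8% per 1000 barcodes, 859 in the deletion-labelled and 793 in the control library, were used for 1 alternative only. The members and all gene lists were chosen with earlier results of these data known.

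Named genes were the 6 markers; the 15 highest and 10 lowest ratios of macrophages over monocytes with at least 50 CPM; the 10 highest and 10 lowest ratios between the hearts; and up to 2 each way per list. Mitochondrial genes, and genes under 0.1 of their level in another class, were left out of the naming. Other genes named were chosen after their values were seen, as were the rank correlations and the score bins. The same naming rule was also applied with the monocytes that met the macrophages' exclusions, chosen after seeing the data.

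The scripts were tested on simulated counts with known changes. Alternatives changed the threshold, the proliferation and mitochondrial limits, doublets, scaling, pseudocount, the UMI minimum and the monocytes. Software was Python 3.11.15, NumPy 2.4.6, SciPy 1.17.1, pandas 2.3.3, scanpy 1.11.5 and matplotlib 3.10.9.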

Additional observations from a re-analysis of the deposited data

Results flagged for a closer look

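Globin genes were on opposite sides of the monocytes in the 2 hearts. The log2 ratio of macrophages over monocytes was 1.75 in the deletion-labelled and -2.85 in the control heart for Hba-a2, 2.15 in the deletion-labelled and -1.74 in the control heart for Hbb-bs, and 1.86 in the deletion-labelled and -1.83 in the control heart for Hba-a1. Of the Hbb-bs UMIs in deletion-labelled macrophages, 5 cells held 97.9%. Ltc4s differed between the hearts in opposite directions in the 2 classes, with a log2 ratio of deletion-labelled over control of -0.90 in macrophages and 0.66 in monocytes. None of these differences between hearts or classes was tested, since each group has 1 library.

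The matrices also hold a feature for eGFP, a reporter that the comparisons above did not use. Its UMIs numbered 209 in the deletion-labelled and 346 in the control macrophages, or 17.5 CPM in deletion-labelled and 19.3 CPM in control macrophages. B cells had 13.4 CPM in the deletion-labelled and 11.2 CPM in the control heart, and fibroblasts 668 CPM in the deletion-labelled and 1337 CPM in the control heart. The part of free RNA in the macrophages' value was not tested.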

How the results depend on the processing

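Single ratios were followed through the alternatives for a set of named genes only, many of them named for the size of their ratio. Of 56 such ratios of deletion-labelled over control macrophages that passed 1.5-fold, 42 did so under every alternative that could be run. So did 168 of 200 such ratios of macrophages over monocytes that passed 2-fold, and 12 of 20 list medians. These counts do not speak for all genes that passed. Not every alternative applies to every value, and ratios over monocytes here are against the monocytes as first defined, unless the same exclusions are named. At a threshold of 10 UMIs per 10000 the members were 4.18% of kept barcodes in the deletion-labelled and 6.97% in the control heart. Genes higher in macrophages than in monocytes, 70 at first, numbered 202 with the mean of CPM per cell, 2142 with a minimum of 1 UMI and 136 with the same exclusions in the monocytes, and genes lower, 1741 at first, numbered 1077 with a minimum of 100 UMIs and 489 with the same exclusions. Between the hearts, genes higher in deletion-labelled macrophages, 671 at first, numbered 394 with the median-of-ratios scaling, 345 with at least 100 UMIs and 1678 with at least 1 UMI, and genes lower, 261 at first, 392, 98 and 678 under these settings.

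Some values changed sign. With the mean of CPM per cell, the ratio between hearts was 0.10 for Tagln, and macrophages over monocytes in the deletion-labelled heart gave -0.37 for Hba-a2, -0.087 for Hbb-bs and -0.28 for Hba-a1, against 1.23 for Hba-a2, 1.59 for Hbb-bs and 1.26 for Hba-a1 from the sums. At the threshold of 10, Hba-a2 gave -0.39 and Hba-a1 -0.27. With the same exclusions in the monocytes, the G2 and M phase median was 0.69 in the deletion-labelled and 0.72 in the control heart, the endothelial marker median 0.19 in the deletion-labelled and 0.028 in the control heart, Mki67 0.69 in the deletion-labelled and 0.22 in the control heart, Top2a 0.97 in the deletion-labelled and 0.60 in the control heart, and Fabp4 0.47 in the deletion-labelled heart; there the monocytes lose their cycling and endothelial cells by construction. Without the 5 cells richest in the gene, an alternative chosen after seeing the data, the ratio between hearts was -0.0023 for Fbln2, -3.67 for Cxcl13 and -1.17 for Ctsk. The causes of the other changes were not tested. No paired analysis was possible because no group had a second library, which also limits every value above, since counting error is the only error that could be given.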
